A study of Homo sapiens with 10 samples.

Results

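The proteasome subunit and assembly genes were followed in RNA-seq libraries of A549 cells, a lung adenocarcinoma line, in which RNA polymerase II had been inhibited with 2 drugs. The members were the 48 protein-coding genes, of 20176 in GENCODE release 44 mapped to GRCh37, whose whole symbol is PSMA, PSMB, PSMC, PSMD, PSME, PSMF or PSMG followed by digits. Of these, 46 had at least 1 listed splice junction in some library, PSMA8 had no listed junction in any library, and PSMB11 has no intron and so could not be measured. Each of the 5 conditions had 2 libraries. They were DMSO, used here as the control, α-amanitin at 1 and 2 μg/mL, and DRB at 10 and 25 μg/mL. The time was 24 h for α-amanitin and is not given for DRB in the sources used here. α-Amanitin binds RNA polymerase II itself and slows it, while DRB inhibits the kinases that release the paused polymerase into elongation. All libraries were made from polyadenylated RNA of the same cell line. The study's methods speak of bioreplicates, but the labels do not say that replicates were separate cultures, so the p-values measure the spread between these samples, which may be technical. In bulk RNA, fewer cells of a type and less of an RNA per cell cannot be told apart.

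The proteasome degrades proteins that carry ubiquitin chains. Its barrel-shaped core holds outer rings of α subunits (PSMA genes), which gate the entrance, and inner rings of β subunits (PSMB genes), some of which cut peptide bonds. The regulatory particle that caps the core has a base with a ring of ATPases (PSMC genes), which unfold the substrate, and scaffold subunits, and a lid, which holds the enzyme that removes ubiquitin (PSMD genes). Other caps activate or inhibit the core without ubiquitin (PSME and PSMF1), and dedicated chaperones (PSMG and a few PSMD genes) assemble the core and the base and then leave. Subunits are used in fixed proportions, and their genes are scattered over the genome: of the members 8 lie on chromosome 14 and 7 on chromosome 17. The members were shorter than other genes, with a median length of 16586 bp (range 1849 to 138762) against 30419 bp for all protein-coding genes with an intron, and had the same median of 7 introns in the reference transcript.

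Expression was read from split reads, that is, reads that cross a splice junction. They were summed over the introns of a gene and expressed as CPM, split reads scaled to a library total of 1000000, after TMM scaling, a correction for library composition. This value is called the level here. The files list an intron only above a minimum: the lowest sum of an intron's counts listed was 11, so an unlisted intron may hide up to 10 reads, and a level of 0 means that no intron of the gene was listed. The libraries held 2899344 to 6498515 split reads, and members took 1.09 to 1.44% of those assigned to genes. The DRB 25 μg/mL libraries stood apart, with 45513 and 60620 listed introns against 74739 to 90955 in the others and TMM factors of 0.781 and 0.683 against 1.03 to 1.15. The epithelial keratin genes KRT8 and KRT18 and the A549 markers NQO1 and ALDH1A1 were listed in all 10 libraries, whereas leukocyte, endothelial and hepatocyte markers and the surfactant genes were at 0, as were CDH1, EPCAM, KRT19 and ALDH3A1 of the A549 and epithelial list. AKR1B10 of that list was at 0 in 1 library of 2 μg/mL α-amanitin and in both of 25 μg/mL DRB. Of the fibroblast markers COL1A2 was at 0, but COL1A1 had 157.5 and 12.4 CPM, without TMM, in DMSO, 28.5 to 108.8 under α-amanitin, 21.5 and 2.23 with the lower dose of DRB and 24.1 and 0 with the higher. Its part in the results was not tested.

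At 25 μg/mL DRB exons of 19 members lost at least 0.05 of their inclusion, and 8 of these exons are shown first, since they return with their values after the levels. They are internal coding exons of the reference (Ensembl canonical) transcripts, 1 per gene, with the largest losses of inclusion, and were chosen after their values were seen. Capitals mark the exon and lower case the 20 flanking intron nucleotides on each side, 5′ to 3′ on the strand of the gene, read from GRCh37. In all 8 the upstream intron ends in AG and the downstream intron begins with GT, the usual splice-site letters.
PSMC6 exon 9, chr14:53184947-53185070 (plus strand): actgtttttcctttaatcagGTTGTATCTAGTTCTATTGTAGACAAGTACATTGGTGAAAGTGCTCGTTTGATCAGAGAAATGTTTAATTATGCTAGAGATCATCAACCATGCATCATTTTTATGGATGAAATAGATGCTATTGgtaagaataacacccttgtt
PSMA5 exon 2, chr1:109964482-109964548 (minus strand): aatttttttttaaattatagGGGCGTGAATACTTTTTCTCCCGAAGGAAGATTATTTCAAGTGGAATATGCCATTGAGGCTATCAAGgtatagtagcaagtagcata
PSMA6 exon 5, chr14:35782087-35782265 (plus strand): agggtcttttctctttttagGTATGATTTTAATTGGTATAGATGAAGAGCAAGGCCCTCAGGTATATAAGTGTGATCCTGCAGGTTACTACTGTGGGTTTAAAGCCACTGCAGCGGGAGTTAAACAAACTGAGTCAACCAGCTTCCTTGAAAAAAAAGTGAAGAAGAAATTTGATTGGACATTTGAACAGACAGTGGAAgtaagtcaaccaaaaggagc
PSMD3 exon 8, chr17:38151429-38151548 (plus strand): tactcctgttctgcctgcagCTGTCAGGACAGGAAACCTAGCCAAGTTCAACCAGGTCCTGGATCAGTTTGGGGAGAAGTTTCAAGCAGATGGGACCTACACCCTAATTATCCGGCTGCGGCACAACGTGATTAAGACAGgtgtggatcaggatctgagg
PSMD11 exon 9, chr17:30804539-30804601 (plus strand): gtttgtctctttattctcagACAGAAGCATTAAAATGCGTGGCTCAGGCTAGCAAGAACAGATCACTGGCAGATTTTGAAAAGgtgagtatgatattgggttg
PSME3 exon 3, chr17:40986532-40986594 (plus strand): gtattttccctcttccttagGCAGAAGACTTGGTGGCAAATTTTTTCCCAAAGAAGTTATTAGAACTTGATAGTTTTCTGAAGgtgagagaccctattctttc
PSMD14 exon 10, chr2:162251589-162251714 (plus strand): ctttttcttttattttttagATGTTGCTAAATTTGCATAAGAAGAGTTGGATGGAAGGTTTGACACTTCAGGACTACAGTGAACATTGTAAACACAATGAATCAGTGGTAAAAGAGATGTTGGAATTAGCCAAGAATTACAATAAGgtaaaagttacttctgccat
PSMD13 exon 3, chr11:244041-244075 (plus strand): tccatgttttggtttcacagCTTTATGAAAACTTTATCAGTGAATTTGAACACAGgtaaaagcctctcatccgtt
The exons of PSMD3, PSMD11, PSME3 and PSMD14 have lengths of 120, 63, 63 and 126 nts, which are multiples of 3. Skipping of such an exon alone leaves the reading frame in place. Part of the skipping reads described below left out further exons as well, and the frame of those products was not examined. The lengths of the exons of PSMC6, PSMA5, PSMA6 and PSMD13, of 124, 67, 179 and 35 nts, are not multiples of 3.

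In DMSO the core particle genes led the order of levels. Because a sum over junctions grows with the number of introns, genes were compared by the median over the canonical introns of the CPM at each junction, without TMM. The median member had 34.2 CPM per junction (SD 4.24 between the 2 libraries). PSMB4 and PSMB3, non-catalytic β subunits, stood highest at 97.0 ± 0.25 and 93.8 ± 13.3 (SD, n = 2), and did not differ beyond their spread. PSMB5, the chymotrypsin-like β subunit that proteasome inhibitor drugs target, had 76.3, PSMB6, the caspase-like subunit, 60.7 and PSMB7, the trypsin-like subunit, 50.4. Their replacements in the immunoproteasome, the form induced by interferon for antigen processing, were far lower, with 8.36 for PSMB9, 4.11 for PSMB8 and a median junction of 0 for PSMB10, of whose 7 canonical introns 4 were unlisted in each DMSO library. The chaperone PSMD5 (4.15) and the large activator PSME4 (4.69) were among the lowest.

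**Figure D1:**
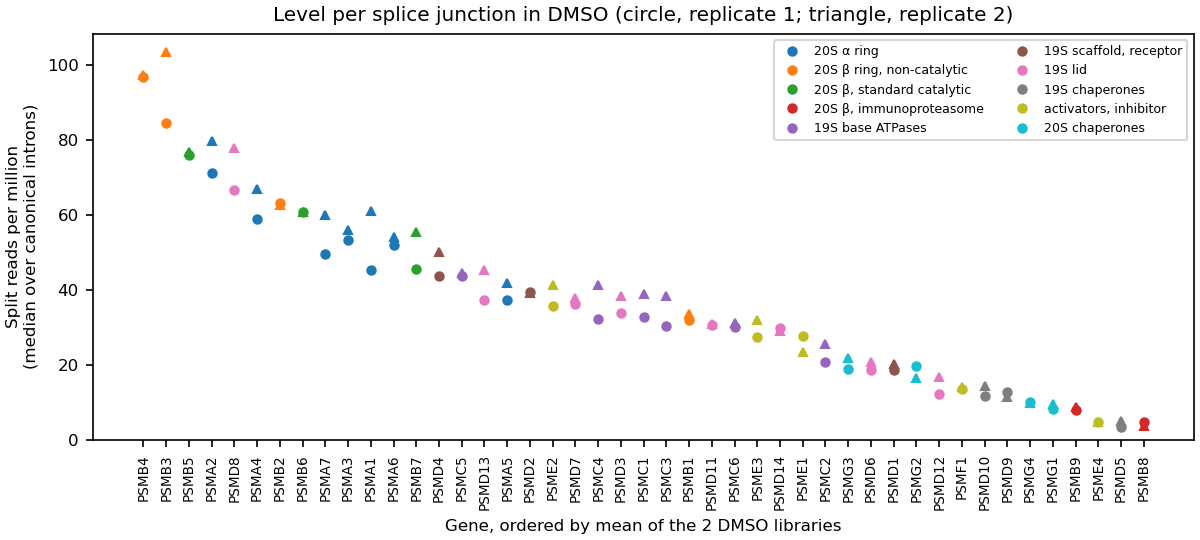
CPM per junction (y axis, median over canonical introns) of the members in DMSO, ordered from highest to lowest, with the libraries as circle and triangle and the role as colour. PSMB10 was listed in DMSO but is not drawn, because its median junction was 0. The β ring genes PSMB4 and PSMB3 lie highest at 97.0 and 93.8 on average, and the immunoproteasome genes PSMB9 and PSMB8 lie near the low end at 8.36 and 4.11.

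α-Amanitin at 1 μg/mL gave no discernible change in any member: 0 of 46 passed an adjusted p of 0.05 (limma voom with Benjamini-Hochberg adjustment over 9695 genes, of which 0% were called), and 3 members, PSMD7, PSMA1 and PSMD3, had an unadjusted p under 0.05. The largest negative difference was that of PSMD7, a lid subunit and the partner of the deubiquitinase PSMD14, with levels of 225.9 and 235.0 in DMSO and 181.2 and 181.8 at 1 μg/mL (log2 fold change -0.34 ± 0.09 SE, adjusted p = 0.467). PSMG3, a core chaperone, had levels of 19.4 and 22.2 in DMSO and 17.1 and 16.2 at this dose (log2 fold change -0.33). PSMA1, an α subunit, had 389.4 and 437.9 in DMSO and 342.0 and 332.5 at this dose (-0.29). In these 3 genes both treated libraries lay below both DMSO libraries. The largest positive differences were 0.34 for PSMD5, a chaperone of the base, 0.24 for PSMB10 and 0.13 for PSMD2. For PSMD5 the levels were 29.7 and 37.6 in DMSO and 40.0 and 44.4 with the drug, the levels of PSMB10 were 24.7 and 36.0 against 29.6 and 40.6, with overlapping groups, and PSMD2 had 780.0 and 768.3 against 839.0 and 857.6. Of the 46 members, both treated libraries lay below both DMSO libraries in 24, against 19.5% of all genes tested, and above both in 2, against 21.7%.

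At 2 μg/mL α-amanitin 3 of 46 members passed the test, against 6.32% of all genes tested (2.36% higher and 3.96% lower), and they belong to different parts of the particle. PSMD2, the large scaffold of the base on which ubiquitin-like domains dock, rose from 780.0 and 768.3 to 1063.4 and 1029.2 (log2 fold change 0.43 ± 0.08 SE, adjusted p = 0.0298 by limma voom). PSMA1 fell from 389.4 and 437.9 to 281.7 and 310.2 (-0.48 ± 0.10, adjusted p = 0.0428). PSMD7 fell from 225.9 and 235.0 to 176.6 and 170.6 (-0.41 ± 0.09, adjusted p = 0.0492). In each of the 3 the groups did not overlap. When any 1 of the 4 libraries compared was left out, none of these calls held, so they need all 4 libraries. In most of those fits few or none of the calls among all genes held either. Over the settings and leave-outs tried, the log2 fold change ran from 0.41 to 0.50 for PSMD2, from -0.57 to -0.40 for PSMA1 and from -0.44 to -0.34 for PSMD7. Of the 46 members, 10 lay above both DMSO libraries and 18 below, against 30.8% and 27.8% of all genes tested. None of the 46 differed between 2 and 1 μg/mL (0% of all genes were called), and the direct comparison gave 0.30 for PSMD2.

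No catalytic β subunit passed the test under α-amanitin. For PSMB5, PSMB6 and PSMB7 both libraries of the lower dose lay below both DMSO libraries. PSMB5, at 156.2 and 154.1 in DMSO, had levels of 137.2 and 142.8 with the lower dose and 151.7 and 154.9 with the higher one. PSMB6, at 247.4 and 271.0 in the controls, had 236.8 and 240.2 with the lower dose and 259.5 and 239.9 with the higher one. For PSMB7 the controls had 339.9 and 390.2, the lower dose 299.3 and 321.9 and the higher dose 292.3 and 351.5. The immunoproteasome subunits had higher values at 2 μg/mL than in DMSO, though none passed the test: PSMB8, at 26.3 and 27.2 in DMSO, reached 43.9 and 39.4 (log2 fold change 0.63). PSMB9, at 37.7 and 42.9 in DMSO, reached 50.3 and 45.1 (0.23), and PSMB10 24.7 and 36.0 against 44.4 and 42.7 (0.53). In all 3 both libraries at 2 μg/mL lay above both DMSO libraries.

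DRB at 10 μg/mL was followed by lower levels in 8 members and a higher level in 1, or 9 of 46 called, against 14.8% of the 9544 genes tested (8.17% higher and 6.58% lower). The members' median log2 fold change was -0.27, against 0.03 over all genes. Of 7 α subunits 2 fell, PSMA4 from 441.0 and 486.5 to 228.0 and 245.7 (-0.97 ± 0.18 SE, adjusted p = 0.0233) and PSMA1 from 389.4 and 437.9 to 304.9 and 294.4 (-0.47, adjusted p = 0.0431). The standard catalytic subunits had lower levels together: PSMB5 fell from 156.2 and 154.1 to 94.1 and 88.1 (-0.77 ± 0.13, adjusted p = 0.0189), PSMB7 fell from 339.9 and 390.2 to 213.9 and 220.1 (-0.75 ± 0.15, adjusted p = 0.0319). PSMB6, with 247.4 and 271.0 in DMSO and 137.9 and 142.5 here, had a log2 fold change of -0.88 and missed the threshold (adjusted p = 0.0609). In these 3 genes the treated libraries lay below every DMSO and α-amanitin library.

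Of the ATPases, PSMC3 fell at 10 μg/mL DRB from 449.7 and 492.8 to 255.0 and 253.5 (-0.89 ± 0.13, adjusted p = 0.0130) and PSMC6 from 376.6 and 392.4 to 216.9 and 245.4 (-0.73 ± 0.10, adjusted p = 0.0121), while the other 4 did not pass. PSME4, a large nuclear activator of the core, fell from 226.3 and 227.7 to 114.8 and 129.2 (-0.89, adjusted p = 0.0424). The core chaperone PSMG1 fell from 61.4 and 66.5 to 34.5 and 39.4 (-0.78, adjusted p = 0.0424). PSMF1, known as an inhibitor of the core, was the 1 member to rise, from 84.1 and 84.6 to 120.2 and 128.5 (0.56 ± 0.12, adjusted p = 0.0377). The immunoproteasome subunits did not pass, with 35.6 and 30.2 for PSMB8, 41.1 and 33.4 for PSMB9 and 21.3 and 24.5 for PSMB10. No lid subunit and no base chaperone passed either. Of the 46 members, 35 lay below both DMSO libraries and 4 above, against 32.4% and 34.9% of all genes tested. When any 1 of the 4 libraries was left out, 0 members and 0 of all genes passed, so no call at this dose holds with 3 libraries. On the scale of total split reads the median of all genes was 0.17 and that of the members -0.13.

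DRB at 25 μg/mL changed members in both directions, in shares near those of all genes. Of the 46 tested, 29 passed (adjusted p under 0.05, limma voom), 11 higher and 18 lower, against 61.0% of all genes, 20.5% higher and 40.5% lower. Both libraries lay above both DMSO libraries in 15 members and below in 20, against 26.6% and 51.8% of all genes tested. The median log2 fold change was -0.13 over the members and -0.98 over all genes, many of which were unlisted at this dose. When only introns listed in every library were used, 41 members and 4760 genes were left, and the medians were -0.26 and -0.03. With all introns, but only genes listed in all 10 libraries, the median log2 ratio was 0.02 in 41 members and 0.06 in 4858 other protein-coding genes. Whether the members lay above or below the typical gene thus differed with the genes and introns kept, and the part of each was not tested. With total split reads as the scale the median of all genes moved to -1.49, and the split of the members became 5 higher and 29 lower. With introns listed in every library it was 9 higher and 17 lower of the 41 members left.

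**Figure D2:**
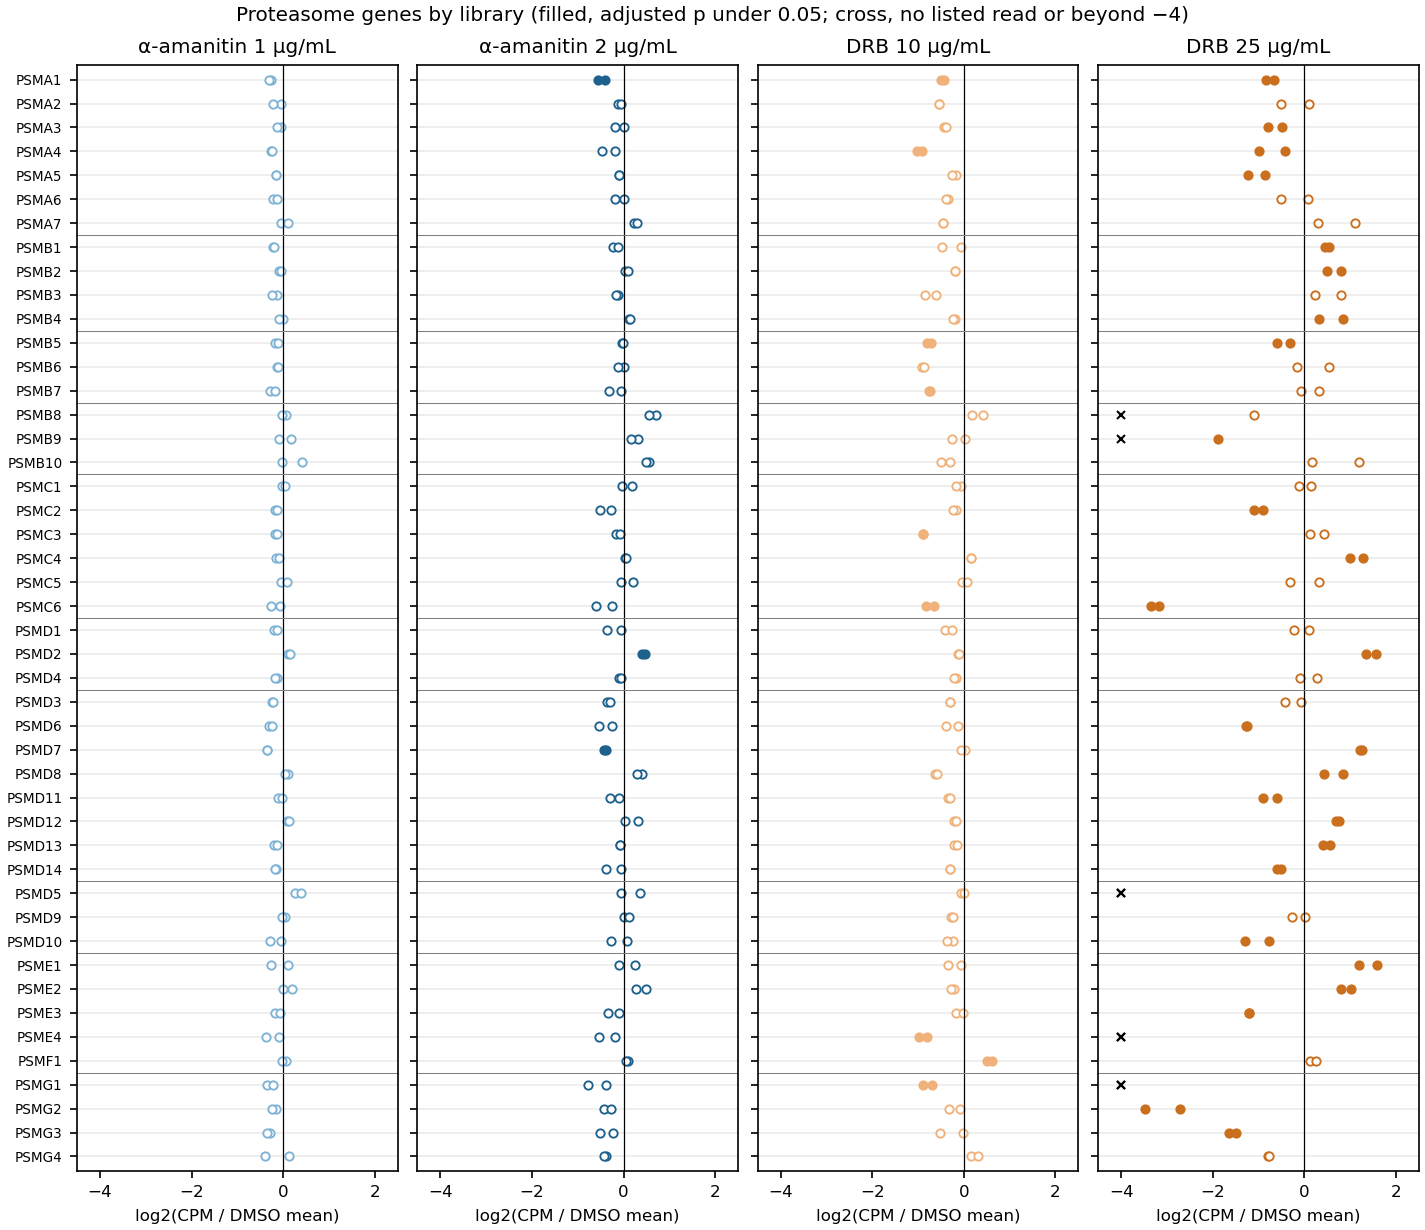
Log2 ratio of each library's level to the DMSO mean (x axis) for every measured member (rows, grouped by role), in 1 panel per condition; filled points mark members with adjusted p under 0.05, and crosses mark libraries with no listed read or beyond -4. At 25 μg/mL DRB the rows spread to both sides, with 11 members higher and 18 lower, while at 1 μg/mL α-amanitin none is filled.

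The 5 largest rises at 25 μg/mL DRB were in the base, the lid and the interferon-inducible activator. PSMD2 rose from 780.0 and 768.3 to 1979.6 and 2289.9 (log2 fold change 1.47 ± 0.10 SE, adjusted p = 0.000538). PSMD7, the lid subunit, rose from 225.9 and 235.0 to 551.8 and 537.9 (1.24 ± 0.09, adjusted p = 0.000538). PSMC4, an ATPase, rose from 352.0 and 407.8 to 758.5 and 918.9 (1.15 ± 0.13, adjusted p = 0.00116). In each the treated libraries lay above all other 8 libraries. PSME1 and PSME2 encode the subunits of a ring-shaped cap that opens the core to peptides and is induced by interferon γ, and they rose together. PSME1 rose from 284.8 and 250.7 to 810.3 and 614.5 (1.39 ± 0.18, adjusted p = 0.00169). PSME2 rose from 342.6 and 386.9 to 635.7 and 738.3 (0.92 ± 0.12, adjusted p = 0.00167). These 5 passed in each of the 4 fits that left out a library and under every other setting tried. With introns listed in every library their log2 fold changes were 1.21, 1.15, 0.97, 0.90 and 0.67 for PSMD2, PSME1, PSMD7, PSMC4 and PSME2.

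The falls were led by genes whose junctions dropped out of the files. PSMC6, an ATPase of the same ring as PSMC4, fell from levels of 376.6 and 392.4 to 42.4 and 37.7 (log2 fold change -3.28 ± 0.22 SE, adjusted p = 0.000538), with 1649 and 1930 split reads in DMSO and 95 and 132 at 25 μg/mL. PSMG2, the partner of PSMG1 in the dimer that assembles the α ring, fell from 109.2 and 99.2 to 9.4 and 16.0 (-3.05 ± 0.39, adjusted p = 0.00159). If every unlisted canonical intron is given its most possible reads, PSMC6 was still at least 5.11-fold lower and PSMG2 at least 3.64-fold lower than the lower DMSO library. PSMG1 had no listed read in either DRB 25 μg/mL library, against 269 and 327 reads in DMSO, and by the same bound was at least 2.29-fold lower.

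For 3 further genes called lower, the files set a limit on how much can be said. PSME4, with 991 and 1120 reads in DMSO, had 0 and 11 at 25 μg/mL, but its 46 canonical introns could hide so many reads that the bound is only 1.10-fold. PSMB9 had 0 and 38 reads against 165 and 211 and was at least 1.69-fold lower. PSMD5 had 0 reads in both libraries against 130 and 185, but with 9 unlisted introns a decrease cannot be established from these counts. Of the 18 members called lower, 17 remained below both DMSO libraries when unlisted introns were given their most reads, and 10 had every canonical intron listed. With the 5 members unlisted in a DRB 25 μg/mL library set to their bounds, the members' median was -0.06.

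**Figure D3:**
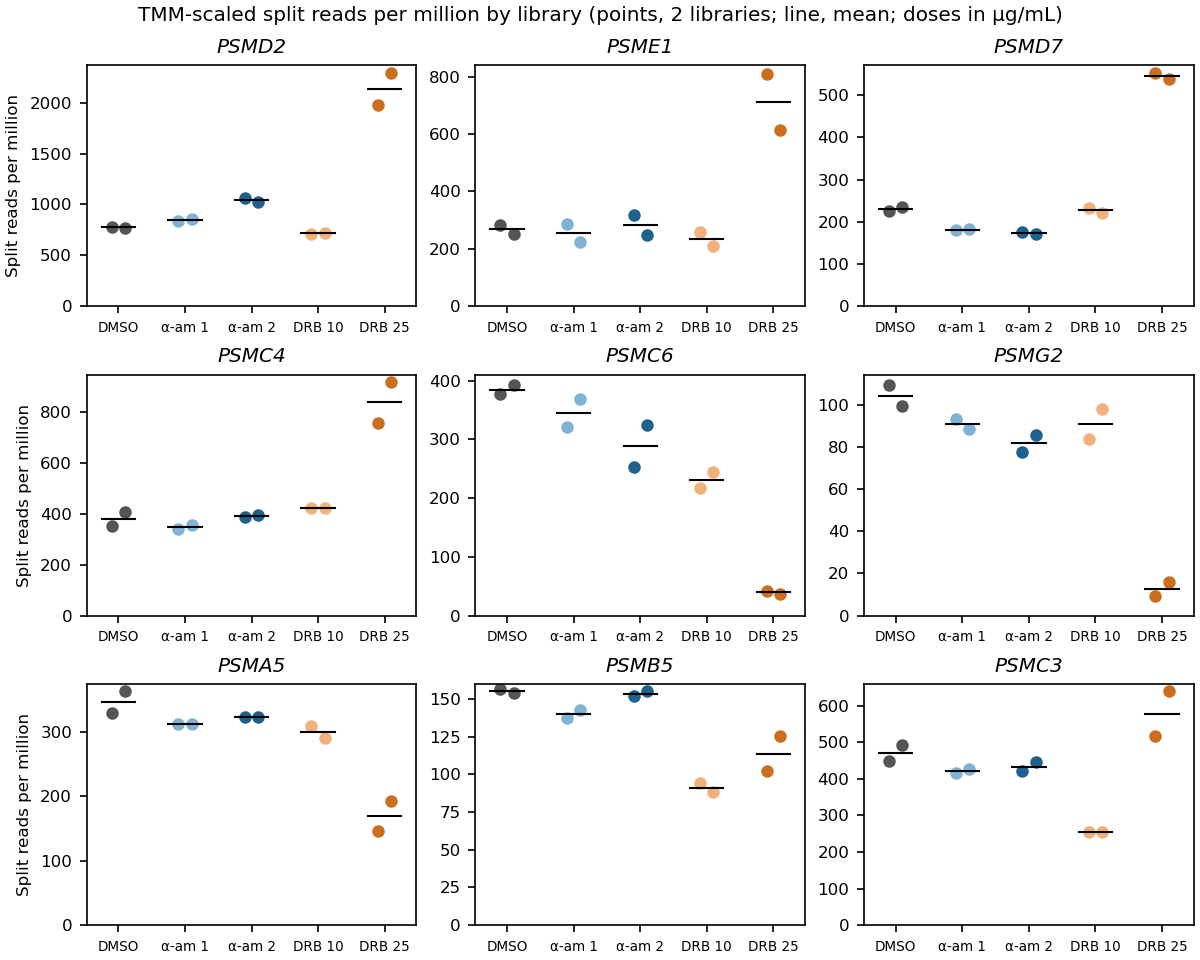
Levels (y axis, TMM-scaled CPM) of 9 members in the 5 conditions (x axis, doses in μg/mL), with points for libraries and a line for the mean of 2. PSMD2, PSME1, PSMD7 and PSMC4 are highest at 25 μg/mL DRB, PSMC6 and PSMG2 drop to 40.1 and 12.7 on average, and PSMB5 and PSMC3 are lowest at 10 μg/mL DRB.

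By role, the calls in the core at 25 μg/mL DRB are given as counts of few genes. Of all 9544 genes tested 5823 were called, 1953 of them higher. Of 7 α subunits 4 fell and none rose: PSMA5 fell from 329.1 and 363.5 to 146.9 and 192.4 (-1.01 ± 0.15, adjusted p = 0.00309), and PSMA1, PSMA4 and PSMA3 fell with log2 fold changes of -0.74, -0.66 and -0.63. PSMA7 did not pass, with 290.8 and 339.1 in DMSO and 388.4 and 676.8 here, libraries that differed from each other more than in any other condition. Its log2 fold change of 0.74 was above the highest of the non-catalytic β subunits, 0.66, so the rings differ in calls more than in direction. Of the 4 non-catalytic β subunits 3 rose and none fell, with PSMB2 going from 294.6 and 305.8 to 423.7 and 520.8 (0.66) and PSMB4 from 621.7 and 645.3 to 791.1 and 1137.0 (0.60). PSMB1 rose by 0.50, and turned to -0.02 on the scale of total split reads. Under 8 other settings of the processing PSMB2 was called in 7, PSMB4 in 5 and PSMB1 in only 2. PSMB3 had 372.3 and 442.6 in DMSO and 482.6 and 708.2 here and did not pass. Of the standard catalytic subunits PSMB5 fell, from 156.2 and 154.1 to 102.2 and 125.2 (-0.42, adjusted p = 0.0465 by limma voom). It was called in 4 of the 8 other settings. PSMB6 had 231.7 and 378.1, overlapping DMSO, and PSMB7 348.2 and 453.6. Of the immunoproteasome subunits PSMB8 had 0 and 44 reads, against 115 and 134 in DMSO, without passing, and PSMB10 had levels of 33.9 and 69.2.

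In the regulatory particle 6 members were called higher and 7 lower, base chaperones included. The 7 include PSMD5, for which a decrease could not be established. Of all 9544 genes tested 5823 were called, 1953 of them higher, so these counts are a description of the members. Of 6 ATPases, PSMC4 rose and PSMC6 and PSMC2 fell, PSMC2 from 225.7 and 261.3 to 130.8 and 114.3 (-1.01, adjusted p = 0.00267). PSMC1, PSMC3 and PSMC5 did not pass. Of 8 lid subunits, PSMD7, PSMD12 (0.72), PSMD8 (0.66) and PSMD13 (0.49) rose, and PSMD6 (-1.26), PSMD11 (-0.73) and PSMD14 (-0.55), the deubiquitinase, fell. PSMD6 fell from 127.2 and 138.3 to 54.9 and 55.7 (± 0.21 SE, adjusted p = 0.00389). PSMD13 turned to -0.02 on the scale of total split reads. Of the base chaperones PSMD10, also known as gankyrin, fell by 0.97 on the log2 scale, and PSMD5 was the gene with no listed read. Of the activators PSME3, a nuclear relative of PSME1 and PSME2 that forms a ring of its own, fell from 286.0 and 325.1 to 131.7 and 132.0 (-1.21 ± 0.14, adjusted p = 0.00117). PSMF1, which rose at 10 μg/mL, had 91.5 and 101.5 and did not pass. Of the 4 core chaperones 3 fell, PSMG3 among them from 19.4 and 22.2 to 6.7 and 7.4 (-1.53), and PSMG4 had 26.0 and 23.8 in DMSO and 14.3 and 14.6 here.

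The 2 doses of DRB differed in 30 of 46 members, 16 higher and 14 lower at 25 μg/mL, against 63.0% of all genes (19.8% higher and 43.1% lower). All 4 non-catalytic β subunits were higher at 25 than at 10 μg/mL, PSMB3 by 1.26 ± 0.22 on the log2 scale (adjusted p = 0.00454), as were the catalytic subunits PSMB6 (1.12) and PSMB7 (0.89). PSMB5, the other standard catalytic subunit, had a mean of 91.1 at 10 and 113.7 at 25 μg/mL and did not pass (0.35, adjusted p = 0.0940 by limma voom). PSMC3, at 254.3 on average at 10 μg/mL, reached 578.1 at 25 μg/mL (1.19 ± 0.13, adjusted p = 0.00103). All 4 core chaperones were lower at 25 μg/mL, PSMG4 by 1.02 and PSMG3 by 1.22. The comparisons with DMSO share the DMSO libraries, so the values at the 2 doses are given side by side and not correlated.

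The higher dose of each drug gave different levels in 28 of 46 members, 12 higher and 16 lower at 25 μg/mL DRB than at 2 μg/mL α-amanitin, against 59.7% of all genes (19.4% higher and 40.3% lower). The doses of the drugs differ and the time of DRB is not given, and which of drug, dose and time the difference belongs to cannot be told apart. PSMD7 showed it most among the members that were higher, with 176.6 and 170.6 under α-amanitin and 551.8 and 537.9 under DRB (1.65 ± 0.09, adjusted p = 4.87e-06). PSME1 was higher by 1.31, PSMC4 by 1.10 and PSMD2 by 1.04. PSMC6 was lower (-2.86 ± 0.27, adjusted p = 7.78e-05), with 253.1 and 324.5 under α-amanitin.

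Gene length moved with the change at 25 μg/mL DRB. Among the 41 members listed in all 10 libraries, length and the log2 ratio to DMSO had a Spearman coefficient of -0.452, and -0.181 among 4858 other protein-coding genes. These coefficients are descriptions across genes of the same libraries, and genes are not independent replicates. They leave out the members with no listed read in a library of 25 μg/mL DRB, which had low levels there. Of these PSMB8, PSMG1 and PSMB9, of 3963, 8720 and 15716 bp, are short, and PSMD5 and PSME4, of 27456 and 106925 bp, are long. The coefficient and the medians below therefore do not cover members with the lowest levels at this dose. The 21 members of at most 17153 bp had a median log2 ratio of 0.48 (range -1.56 to 1.46), and the 20 longer ones one of -0.50 (range -3.26 to 0.72). PSME1, of 2805 bp, PSMD7, of 9475 bp, and PSMD2, of 9853 bp, are on the short side, and PSMG2, of 70903 bp, on the long side, but PSMC6, of 21413 bp, had the largest fall in this set. The part of length in these changes was not tested. The coefficient in members was -0.453 at 2 μg/mL α-amanitin, -0.222 at 1 μg/mL and 0.0969 at 10 μg/mL DRB, against -0.0659, 0.0333 and 0.041 among the other genes. Within genes, the ratio of the split reads of the 5′ part of the canonical introns to those of the 3′ part changed little: over 29 members with at least 6 introns the median change at 25 μg/mL was 0.02 on the log2 scale, from -0.61 in PSMA5 to 0.67 in PSMD11, and 3 members changed by over 0.5. The same ratio differed by up to 0.55 between the DMSO libraries.

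**Figure D4:**
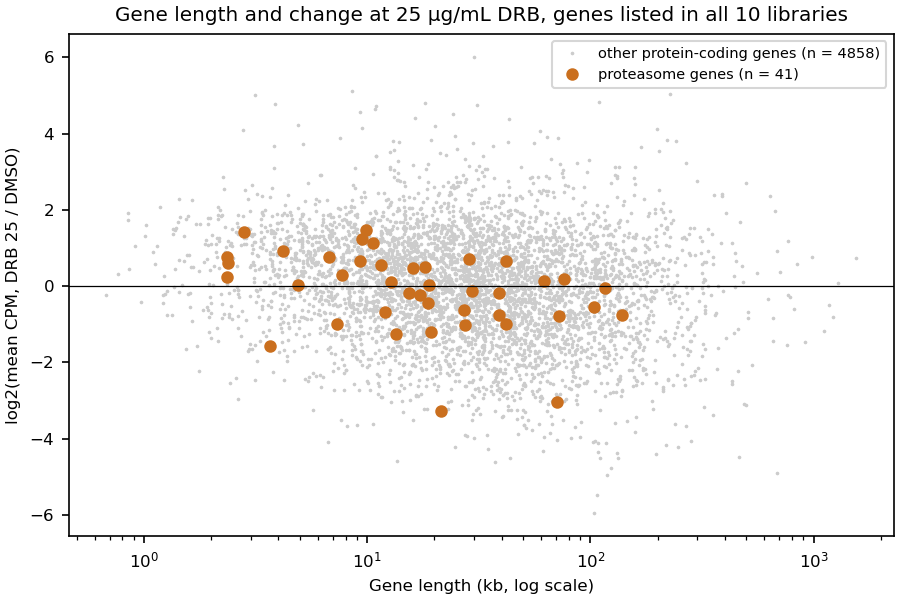
Log2 ratio of the mean level at 25 μg/mL DRB to the DMSO mean (y axis) against gene length in kb on a log axis, for 41 members (orange) and 4858 other protein-coding genes (grey) listed in all 10 libraries. The 21 shorter members have a median of 0.48 and the 20 longer ones a median of -0.50.

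More exons of the members had skipping reads at 25 μg/mL DRB than in DMSO. Inclusion is given as Ψ, the share of inclusion among the reads that include or skip an exon, with the 2 junctions of an included exon counted against 1. The files hold no skipping count between 0 and 3, so a Ψ of 1.00 allows up to 2 skipping reads at a junction. Of 401 listed exons of the canonical transcripts, 329 exons in 41 genes had a denominator of at least 10 in all libraries. Ψ pooled over the 2 libraries was lower than in DMSO by at least 0.05 in 49 of these, in 19 genes, at 25 μg/mL DRB, in 3 at 10 μg/mL, in 1 at 2 μg/mL α-amanitin and in 0 at 1 μg/mL. Skipping reads were listed for 95 of the 329 exons at 25 μg/mL DRB and for 17 in DMSO. Among internal exons, 47 of 303 (15.5%) in members lost at least 0.05 at 25 μg/mL, against 9.94% of 41246 internal exons of other genes, and at 10 μg/mL DRB 3 did (0.99%), against 2.76%. At both doses of α-amanitin 0 internal exons of members did, against 1.82% and 2.68%.

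The exons shown above behaved as follows. The Ψ of PSMC6 exon 9 was 1.00 in each DMSO library but 0.391 and 0.538 at 25 μg/mL DRB, from 23 inclusion and 13 skipping reads in all. The skipping reads join exon 8 to exon 10, a junction that is not annotated and was listed also in 1 library of each α-amanitin dose with 3 reads each. Among the members listed in all libraries PSMC6 had the largest fall in level, and among the internal coding exons with a denominator of at least 10 its exon 9 had the largest loss of Ψ. For PSMA6 exon 5, Ψ was 1.00 without drug and under α-amanitin, 0.967 and 0.963 at 10 μg/mL DRB, but it fell to 0.606 and 0.809 under the higher dose of DRB. Its skipping junction from exon 4 to exon 6 is annotated and held 4 and 5 reads at 10 μg/mL and 24 in each library at 25 μg/mL. This order from DMSO to the lower to the higher dose was seen in both libraries, although the difference at 10 μg/mL was not significant (adjusted p = 0.324).

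PSMA5 exon 2 was skipped in every library, which sets it apart from the other 7 exons shown. Its Ψ was 0.954 and 0.960 in DMSO, between 0.905 and 0.945 in the 6 libraries of the lower DRB dose and of α-amanitin, and 0.419 and 0.736 at 25 μg/mL. The junction from exon 1 to exon 3 held 6 to 17 reads in each of the 10 libraries, and a further junction from exon 1 to exon 5 was listed only at 25 μg/mL, with 5 and 8 reads. PSMD3 exon 8 went from 1.00 to 0.717 and 0.746, with reads from exon 7 to exon 9 (8 and 15) and from exon 7 to exon 11 (6 and 12). PSMD11 exon 9 went from 1.00 to 0.742 and 0.743. In PSMD11 the junction from exon 8 to exon 10 held 3 reads in each library at 25 μg/mL. More reads left out further exons, from exon 7 to exon 10 with 16 in replicate 2 and from exon 7 to exon 12 with 5 in replicate 1. PSMD14 exon 10 went from 1.00 to 0.758 and 0.806 and PSMD13 exon 3 to 0.660 and 0.868, and PSME3 exon 3 to 0.591 and 0.843. In PSMD13 most of these reads joined exon 1 to exon 4, with 10 in each library. In PSME3 exon 2 was joined to exon 4 by 6 and 3 reads and to exon 5 by 3 and 4. In all 8 exons both libraries at 25 μg/mL lay below all other 8 libraries. The exons were chosen for their large losses in these same libraries, so this order describes the choice and is no check of it. The levels of these genes did not all fall: PSMD13 was called higher, and PSMA6 (-0.17, adjusted p = 0.457) and PSMD3 (-0.23, adjusted p = 0.206 by limma voom) did not pass.

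**Figure D5:**
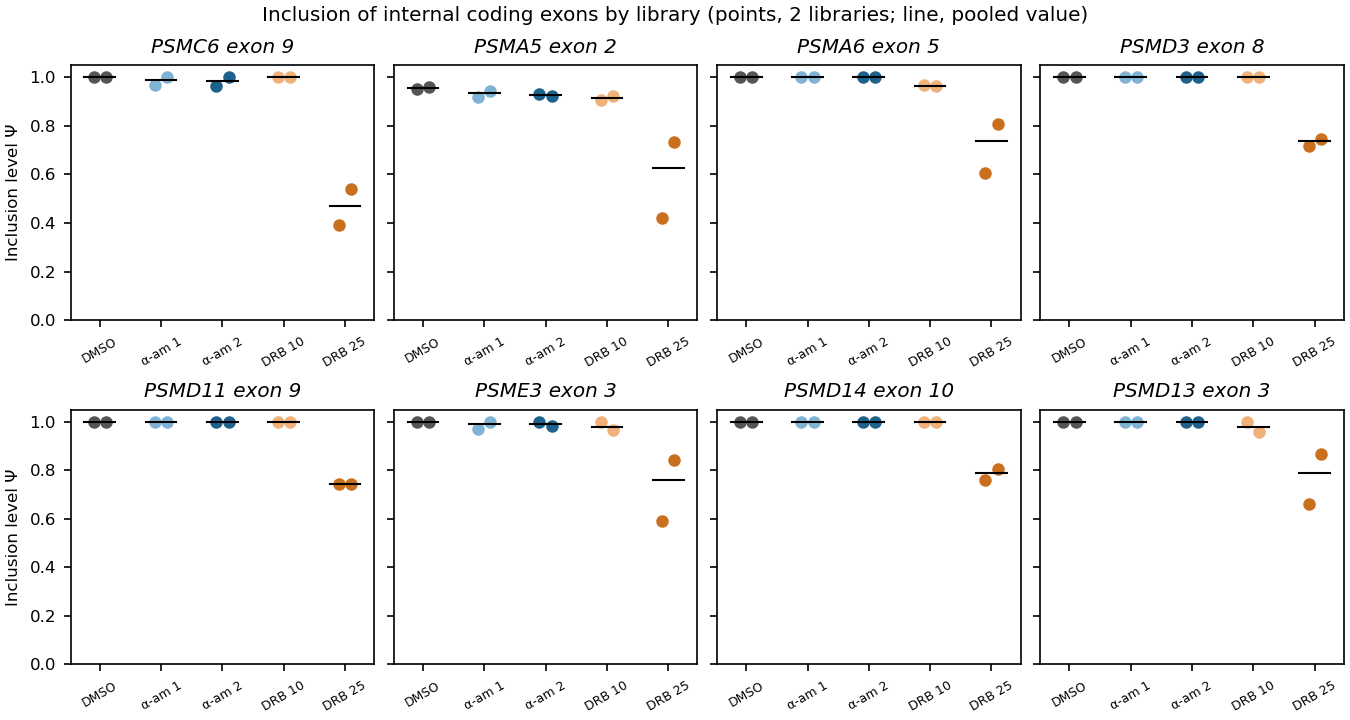
Ψ (y axis, 0 to 1) of the 8 internal coding exons whose sequences are printed, by condition (x axis), with points for libraries. Inclusion is near 1 in the first 4 conditions and lower in both libraries at 25 μg/mL DRB, down to 0.391 and 0.538 in PSMC6 exon 9.

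Tests of inclusion rest on few exons. Only exon entries with at least 10 inclusion and 10 skipping reads over the libraries of a fit were tested, and the entries of a gene overlap and share reads. Of the members' entries, 0 of 61 were called at 1 μg/mL (0% of all entries) and 0 at 2 μg/mL α-amanitin (0.0290%), 0 of 148 at 10 μg/mL DRB (0.0276%) and 91 of 148 at 25 μg/mL DRB (47.3%), of which 80 were lower and 11 higher. Most entries reached the minimum through skipping at 25 μg/mL, so they had to differ there and the count is a description. Among internal exons of the canonical transcripts 39 of the 52 tested in members, in 18 genes, were called lower and 0 higher, against 50.1% and 2.24% of such exons of all genes. The calls of entries did not hold when any 1 library was left out, in members or in all genes. At 25 μg/mL DRB the members' median log2 odds ratio then lay between -4.79 and -4.12, against -5.14 with all libraries. By size of change with no requirement on the transcript, the 6 leading entries, 1 per gene, were in PSMG4, PSMC6, PSMA6, PSMD12, PSMD11 and PSME3. The entry of PSMG4 is its last exon, chr6:3267825-3268283, with Ψ at 1.00 in the controls, at 0.771 and 0.860 under the higher dose of α-amanitin and at 0 under the higher dose of DRB, from 0 inclusion reads and 7 and 6 reads that pass it by. The entry of PSMD12 is also its last exon, chr17:65334032-65337168, with Ψ at 1.00 in the controls and at 0.432 and 0.595 at 25 μg/mL, where reads join the gene to a position beyond its end. A last exon has only 1 junction, but its skipping reads are still counted as 2, so intermediate Ψ values lie below the share of reads. In PSMD12 they rest on 35 and 44 inclusion and 23 and 15 skipping reads. Those of PSMG4 at 2 μg/mL α-amanitin rest on 27 and 37 inclusion and 4 and 3 skipping reads. The other 4 entries each share 1 end with an exon shown above and differ at the other end. Their pooled Ψ at 25 μg/mL DRB ran from 0.212 in PSMC6 to 0.614 in PSME3. These values rest on the same skipping reads as the exons shown and on fewer inclusion reads. In PSMC6 the entry had 3 and 4 inclusion reads, against 9 and 14 and a pooled Ψ of 0.469 for exon 9. The lower values therefore do not show that another form of the exon was used.

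Reads at junctions outside the canonical transcripts took a larger share at 25 μg/mL DRB, in members and in other genes. Introns outside the canonical transcripts held 0.386 to 0.557% of the members' split reads in the other 8 libraries and 2.20 and 1.34% at this dose, against 2.84 to 3.32% and 4.46 and 4.04% in other genes. Introns that are not annotated held 0.0285 to 0.164% of the members' split reads in those 8 libraries and 1.33 and 0.62% at 25 μg/mL, against 0.176 to 0.321% and 1.32 and 0.953% in other genes. These reads remained a small part of all.

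Unspliced reads, which cross an exon boundary without splicing, were followed as their share of the reads at a gene's splice sites. Rare splice sites that lie inside an exon count ordinary exon reads as unspliced, so the share was also computed over the introns of the canonical transcripts, a choice made after seeing the data. For example, the share of PSMA4 over all introns was 0.41% in 1 DMSO library and 7.78% in the other, and over canonical introns 0.42 and 0.34%. Over canonical introns the members' share was 0.350 to 0.715% in the first 4 conditions and 2.00 and 0.915% at 25 μg/mL DRB, while the share over all genes was 0.720 to 1.15% and 1.20 and 0.778%. At 25 μg/mL 3 of the 10 members that could be tested had a higher share, against 10.1% of all genes (7.09% higher and 3.01% lower). PSMD3 rose from 0.47 and 0.35% to 3.97 and 3.08% (log2 odds ratio 3.07, adjusted p = 0.0134 by the quasi-binomial test with limma moderation). PSMD11 rose from 0.70 and 0.37% to 8.44 and 4.0% (3.48, adjusted p = 0.0177). PSMA1 rose from 1.34 and 0.70% to 12.15 and 7.19% (3.31, adjusted p = 0.0134). PSMD13, which was not tested, had 0.67 and 0.24% in controls and 4.58 and 2.78% here, and PSMD6 0.90 and 0.88% against 11.86 and 3.74%. In contrast, PSMB4 had 1.87 and 1.32% in controls and 2.48 and 1.36% here.

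Over all listed introns 2 of 10 members were called at 25 μg/mL DRB, PSMD3 and PSMD11, against 6.82% of all genes (6.04% higher and 0.783% lower), and 0 of 14 at 1 μg/mL α-amanitin (0% of all genes), 0 of 14 at 2 μg/mL (0.198%) and 0 of 10 at 10 μg/mL DRB (1.23%, with 0.783% higher and 0.447% lower). Over canonical introns no member was called in those 3 comparisons either. None of these log2 odds ratios passed the test. At 1 μg/mL the highest were 2.31 for PSME2, 0.96 for PSMD2 and 0.93 for PSMA4, and the lowest -0.56 for PSMA1, -0.47 for PSMC4 and -0.09 for PSMB4. At 2 μg/mL the highest were 2.10 for PSMD11, 1.10 for PSMD2 and 1.10 for PSME2 and the lowest -0.48 for PSMD4, -0.47 for PSMB4 and -0.35 for PSMB10. At 10 μg/mL DRB they ran from -3.43 for PSMC4 to 1.08 for PSMD11, with PSMD3 at 1.01, PSME2 at 0.60, PSMA1 at -0.32 and PSMB4 at -0.32. Over canonical introns the value of PSMC4 was 0.36.

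Proteasome genes are induced together by the transcription factor NFE2L1 through antioxidant response elements in their promoters. NFE2L1 itself had levels of 88.2 and 69.3 in DMSO and 75.0 and 81.5 at 25 μg/mL DRB, with overlapping groups. The core letters of such an element, TGACNNNGC on either strand, were searched in the RefSeq promoters (GRCh38.p14, 250 bases before to 50 after the start), in which 42 members matched by symbol. They were in 13 of 42 (31.0%) member promoters and in 13.3% of 35116 promoters. CCAAT, which can overlap it, was in 45.2 and 34.6%, and TATAAA in 11.9 and 11.5%. The promoters of PSMC4 and PSME1, which rose at 25 μg/mL DRB, are shown with the match in capitals.
PSMC4 promoter, chr19:39970915-39971214 (plus strand): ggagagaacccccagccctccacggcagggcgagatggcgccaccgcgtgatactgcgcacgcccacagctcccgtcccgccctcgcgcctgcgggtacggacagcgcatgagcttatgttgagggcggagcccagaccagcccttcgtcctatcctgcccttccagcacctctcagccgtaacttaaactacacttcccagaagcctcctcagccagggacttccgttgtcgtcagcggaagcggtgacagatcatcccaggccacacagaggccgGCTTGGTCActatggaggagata
PSME1 promoter, chr14:24135944-24136243 (plus strand): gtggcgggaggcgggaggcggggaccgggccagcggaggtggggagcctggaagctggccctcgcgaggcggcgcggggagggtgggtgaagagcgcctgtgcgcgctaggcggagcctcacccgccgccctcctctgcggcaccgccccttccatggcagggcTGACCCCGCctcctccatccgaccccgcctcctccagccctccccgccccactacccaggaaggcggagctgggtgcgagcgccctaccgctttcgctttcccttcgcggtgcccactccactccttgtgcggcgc
The match in PSMC4 is on the minus strand. Matches did not separate the members by direction: they were in 4 of 10 promoters of members that rose at 25 μg/mL, in 5 of 17 of those that fell and in 4 of 13 of the others. A match is a description of letters and not of a bound site.

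Of 37 other genes of the pathway, grouped in lists by function, 12 rose and 11 fell of 34 tested at 25 μg/mL DRB, where 20.5% of all genes were called higher and 40.5% lower. Of 4 subunits and assembly factors without a PSM symbol ADRM1 and SEM1 rose, and the chaperone PAAF1 had no listed read at this dose. ADRM1, a ubiquitin receptor, rose from 158.1 and 193.4 to 437.5 and 449.9 (1.34), and SEM1, a small lid subunit, from 93.9 and 86.6 to 203.6 and 233.5 (1.29). Of 6 tested antigen presentation genes 5 rose, among them B2M, the light chain of the class I complex (1.83), TAPBP (1.89) and TAP2 (1.33). The lowest log2 fold change of the 6 was 0.335. In the same libraries PSME1 and PSME2 rose, but of the immunoproteasome subunits PSMB9 was called lower and PSMB8 and PSMB10 did not pass. Of 4 genes for ubiquitin and its activation 2 rose and 2 fell. RPS27A, which encodes ubiquitin fused to a ribosomal protein, rose by 1.51 on the log2 scale. UBB, a polyubiquitin gene, fell at both DRB doses, from 371.6 and 416.4 to 195.3 and 193.0 and to 162.1 and 177.8 (-1.02 and -1.20). Of 8 enzymes and partners that bind the proteasome 1 rose and 5 fell, ECPAS, an adaptor of the proteasome, among the latter (-2.14). At 10 μg/mL DRB only UBB passed, and at 1 μg/mL α-amanitin 0 of 35 did. At 2 μg/mL α-amanitin TAP1 (0.77), UBA1 (0.64) and B2M (0.61) rose, and FAF1 (-0.71) and ECPAS (-0.55) fell.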

How the data were processed

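Poly(A)+ RNA of 10 A549 libraries was sequenced with 75 bp reads. The authors used STAR (version 2.7.3a by the submitters' notes, while the study's methods name another version) on GRCh37 (hg19) and the IPSA pipeline. The deposited values are whole read counts in a text field, not normalized, of split and unspliced reads per intron and of inclusion and skipping reads per exon, with Ψ as a fraction and a rescaled score, which was not used. Because of the text field the unit was recorded as other, and limma took the place of the count tests of the design. MINIEX rows (80 to 175 per library) and introns shared by genes were left out.

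Introns and exons were assigned by splice sites to GENCODE release 44 on GRCh37. Genes needed 10 split reads in 2 libraries and 15 in all. Gene sums were tested with TMM scaling and limma voom (limma 3.58.1, R 4.3.3, pseudocount 0.5), and inclusion (denominator of at least 10) and unspliced shares (10 reads of each kind in every library) with a quasi-binomial model moderated by limma, all with Benjamini-Hochberg adjustment over all features. A drug was fitted with its 2 doses and DMSO, and the comparison of the drugs held all 10 libraries. The scripts were tested on simulated data. Genes described with values were the catalytic subunits and, per comparison with DMSO, up to 5 rises and 5 falls past the threshold with at least 50 split reads on average, or the 3 largest of each direction where none passed; exons were the 6 largest differences in Ψ, 1 per gene, and unspliced shares the 3 largest of each direction. The members and lists were chosen with earlier results of these data known. Some genes of the ubiquitin list are not reported here and are not in its counts.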

Additional observations from a re-analysis of the deposited data

Results flagged for a closer look

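PSMD7, a subunit of the proteasome lid, differed in direction between the higher doses of the drugs. It fell at 2 μg/mL α-amanitin (log2 fold change -0.41, adjusted p = 0.0492 by limma voom) and rose at 25 μg/mL DRB (1.24, adjusted p = 0.000538), and the direct comparison of the treated groups gave 1.65 ± 0.09 SE (adjusted p = 4.87e-06), with both DRB libraries above both α-amanitin libraries. The fall under α-amanitin was called in 3 of 8 settings and in 0 of 4 fits that left out a library, while the rise under DRB was called in all of these. At 10 μg/mL DRB it had levels of 233.0 and 220.5 against 225.9 and 235.0 in DMSO (log2 fold change -0.03, adjusted p = 0.90 by limma voom), and the DRB doses differed by 1.27 (adjusted p = 0.00046 by limma voom). Drug, dose and treatment time cannot be told apart.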

How the results depend on the processing

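Counts of members called moved with the processing mainly in the weaker comparisons. At 2 μg/mL α-amanitin (3 members) total split reads or no filter on low counts gave 1, introns listed in every library 6, a fit of only the 2 groups 0 and leaving out a library 0. At 10 μg/mL DRB (9) median-of-ratios scaling gave 15, only the 2 groups 17, all 10 libraries in 1 fit 14, limma with a trend 3 and leaving out a library 0. At 25 μg/mL DRB (29) only the 2 groups gave 19 and leaving out a library 20 to 27. Leaving out a library gave 21 to 32 against 10 μg/mL DRB and 18 to 28 against 2 μg/mL α-amanitin. For these fits the lone library was assumed to vary like the other groups. PSMB1 and PSMD13 at 25 μg/mL DRB turned to -0.017 and -0.022 with total split reads. Unspliced shares at 25 μg/mL DRB (2) gave 0 with at least 30 reads of each kind, 1 with only the 2 groups and 0 to 2 without a library, and at 2 μg/mL α-amanitin 0 to 1. Exon inclusion at 25 μg/mL DRB (91) gave 41 with canonical exons only, an alternative chosen after seeing the data. With the replicate block it gave 0, as it did for all 10873 entries. No call of inclusion held without 1 library, in members or in all genes. With limma on log odds exon inclusion gave 2 at 2 μg/mL α-amanitin and 14 at 10 μg/mL DRB, and with a denominator of 30 it gave 1 at 10 μg/mL DRB. The cause of these shifts was not tested.

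Samples share only a replicate number. With the replicate number as a block 14 members, 5 higher and 9 lower, were called at 2 μg/mL α-amanitin and 2116 genes in all, against 613 without it, and with DRB 6 at the lower dose and 27 at the higher. The differences between replicates correlated by 0.19 to 0.50 over 7096 genes among DMSO, α-amanitin and 10 μg/mL DRB and by -0.01 to 0.06 with 25 μg/mL DRB. Because each comparison holds only 2 pairs and the labels tie no number to a shared culture or batch, the numbers were not taken to pair the samples.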
